A study of Mus musculus with 6 samples.

Results

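The genes described here encode enzymes of glycolysis, several of them as alternative isoforms of 1 enzyme: the hexokinases Hk1 and Hk2, glucose-6-phosphate isomerase Gpi1, the phosphofructokinases Pfkp, Pfkm and Pfkl, the aldolases Aldoa and Aldoc, phosphoglycerate kinase Pgk1 and lactate dehydrogenase Ldha. Every probe set whose annotated gene symbol was exactly 1 of these 10 names was taken, whatever its signal. That gave 21 probe sets for 9 genes, out of 34945 probe sets with a single symbol and 18193 genes in all. No probe set carried the symbol Gpi1, so its expression was not analysed here. Of the 21 probe sets, 2 stayed below an intensity of 16 on all arrays, 1 of Aldoc and 1 of Pfkl.

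Glycolysis splits a molecule of glucose into pyruvate and yields ATP without oxygen. Hexokinase traps glucose in the cell, phosphofructokinase makes the committed step to fructose 1,6-bisphosphate, aldolase cleaves that sugar, phosphoglycerate kinase yields ATP, and lactate dehydrogenase turns pyruvate into lactate. Most steps have isoforms from separate genes: Pfkm and Aldoa are the forms of adult skeletal muscle, Pfkl is known from liver, Pfkp was named after platelets, and Aldoc is known from brain. Hk2 is the hexokinase of insulin-sensitive muscle, whereas Hk1 is found in most tissues.

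The samples were C2C12 cells, an established line of mouse myoblasts that stop dividing in suspension and can differentiate into myotubes. In 3 of them, labelled PRDM2 KD S48, the cells carried an shRNA that targets PRDM2, a nuclear PR-domain zinc finger protein of the lysine methyltransferase family, and in the other 3, labelled GFP S48, a control shRNA against GFP. All 6 had been kept for 48 hours in methylcellulose with 20% fetal calf serum to bring them to G0, so a dividing or untransfected reference does not enter the comparison. Each group came from a stable pool of cells. Its samples are called biological replicates, without a statement that they came from separate transfections, so p-values measure only the spread between these samples. The question was which transcripts of the pathway differ in arrested myoblasts when PRDM2 is knocked down.

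Arrays had median intensities of 10.6 to 12.1, and 55.1% to 58.2% of probe sets on each were under 16. The brightest Prdm2 probe set had control and knockdown means of 69.0 ± 20.0 and 46.1 ± 15.2 (SD, n = 3 each). The groups overlapped there, and none of its 3 probe sets passed the limma test. Control array 3 had a beta-actin 5' to 3' ratio of 0.114, against 0.299 to 0.723 elsewhere. Its Gapdh 5' to 3' ratio was 0.0992, against 0.704 to 1.14 elsewhere. Array 3 of either group had a lower spike signal (Dap), 16.1 and 21.2 against 93.1 to 161. The lists of cell markers were written with earlier results of these data known. All 12 markers of differentiated muscle passed as higher, beside 1.81% of all probe sets. Their summed intensity was 214 to 484 in the control and 8714 to 10859 in the knockdown. The 5 measured proliferation markers all passed as lower, beside 1.29% of all probe sets, with sums of 599 to 880 and 49.6 to 84.8. Of the 6 myoblast markers 0 rose and 1, Myf5, fell. Among 14 measured markers of fibroblasts, adipocytes, endothelium and immune cells only Col1a1 passed, as higher, and 8 stayed below 16 on all arrays. The part of these shifts in the results below was not tested, and in bulk RNA fewer cells of a type cannot be told apart from less RNA per cell.

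Pfkp and Aldoc fell in the knockdown, and no member rose. By limma, with Benjamini-Hochberg adjustment over all 34945 probe sets, 2 of the 21 member probe sets passed at an adjusted p under 0.05 as lower, 0 as higher, and 19 did not pass. Across all probe sets 1.29% passed as lower and 1.81% as higher. At an unadjusted p under 0.05 the member count was 5, all of them lower, against 5.62% of all probe sets that were lower at that level. The difference was negative at 18 of the 21 probe sets, with a median log2 difference of -0.23, beside a median of -0.00035 over all probe sets, 50.1% of which were negative. Several of these probe sets are of the same gene and are not independent. At the brightest probe set of each gene the median was -0.37 for the members and -0.0036 for all genes. In 6 of the 21, all knockdown arrays lay below all control arrays after normalization, which held for 8.18% of all probe sets. In none did they all lie above, against 9.84%. These 6 belonged to Pfkp (2), Aldoc, Hk1, Hk2 and Pgk1.

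**Figure D1:**
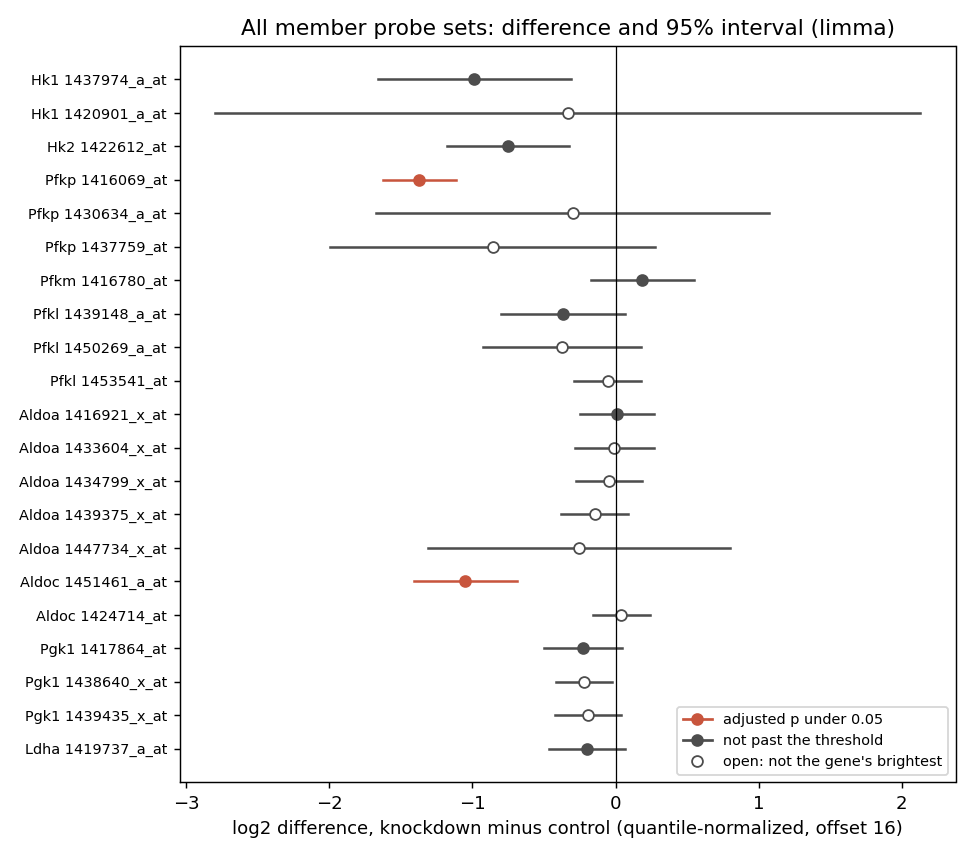
The log2 difference between knockdown and control (x axis) is shown with its 95% interval from limma for each of the 21 member probe sets (rows). Red marks the 2 past the threshold, at -1.37 for Pfkp and -1.05 for Aldoc, and open points are probe sets that are not the brightest of their gene.

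Hexokinase commits glucose to metabolism, and Hk1 and Hk2 both read lower in the knockdown without passing the test. The single Hk2 probe set read 844, 1208 and 747 in the control, as deposited and in the order of arrays 1 to 3, and 626, 461 and 615 in the knockdown. The groups did not overlap, and the knockdown mean stood at 60.8% of the control mean. The log2 difference was -0.75 (SE 0.176, 95% interval -1.18 to -0.33, limma adjusted p = 0.10). For Hk1, the brightest probe set gave 879, 1273 and 977 in the control and 646, 346 and 667 in the knockdown, again without overlap. Its means were 1043 ± 205 and 553 ± 180 (SD, n = 3 each), with a log2 difference of -0.99 (SE 0.278, limma adjusted p = 0.167). In both genes control array 2 was the highest and knockdown array 2 the lowest. Over 20 alternatives to the fit neither gene passed in any, and the lowest adjusted p was 0.0627 for Hk2 and 0.0831 for Hk1.

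Among the phosphofructokinases, which set the pace of glycolysis, Pfkp fell and the other isoforms did not pass. Pfkp had intensities of 1235, 1162 and 1059 on the control arrays and 493, 482 and 394 on the knockdown arrays at its brightest probe set. The lowest control array thus read well above the highest knockdown array. The means were 1152 ± 88.5 and 456 ± 54.5 (SD, n = 3 each), so the knockdown stood at 39.6% of the control. Pfkp fell 2.59-fold on the normalized scale with its offset of 16 (log2 difference -1.37, SE 0.106, limma adjusted p = 0.00219). The difference was -1.25 within the 4 arrays with the stronger spikes and -1.61 within the pair with the weaker ones, and the call held without any single array, with adjusted p of 0.00746 to 0.0185. It was lost when the gene's 3 probe sets were averaged (log2 difference -0.84, limma adjusted p = 0.249).

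Pfkm, the muscle form, was the only phosphofructokinase with a higher mean in the knockdown. Its probe set read 256, 261 and 242 in the control and 275, 285 and 377 in the knockdown. The deposited values did not overlap, whereas the normalized values did, and knockdown array 3 was the highest. The log2 difference of 0.19 (95% interval -0.17 to 0.54, limma adjusted p = 0.743) did not pass. Pfkl, the liver form, gave 1141, 1441 and 1157 in the control and 999, 804 and 1157 in the knockdown at its brightest probe set. Knockdown array 3 was within the control range, and the difference was -0.37 (95% interval -0.80 to 0.06, limma adjusted p = 0.496). Its other well-measured probe set differed by -0.38 and the dim one by -0.06, neither of which passed.

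**Figure D2:**
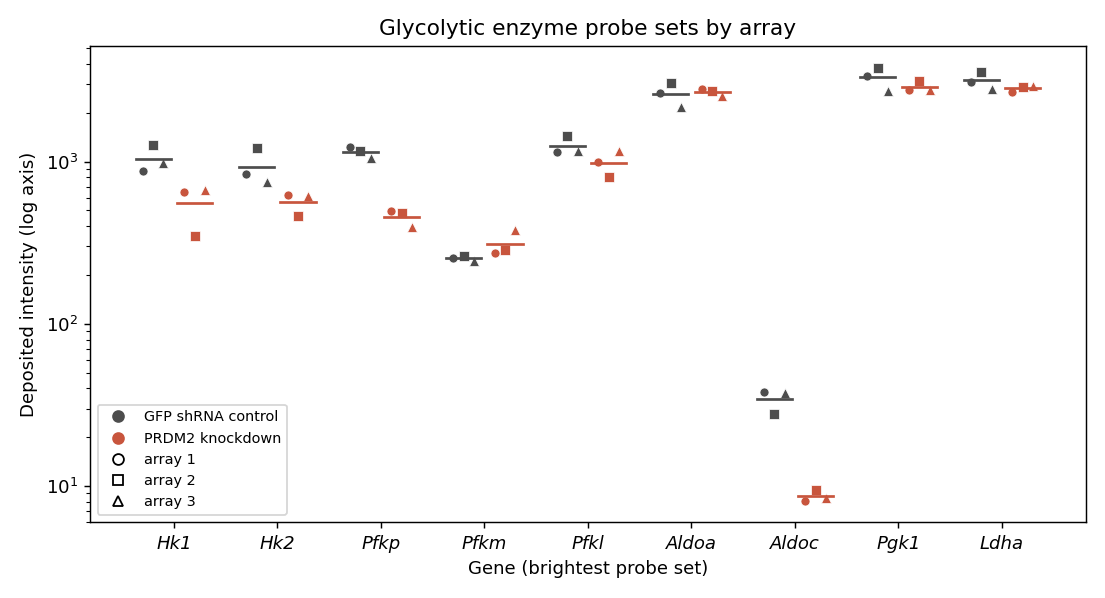
Deposited intensity (log axis) is plotted for the brightest probe set of each of the 9 measured members, with 1 symbol per array and a bar at each group mean. The control and knockdown arrays are well apart for Pfkp (1059 to 1235 against 394 to 493) and Aldoc (28.0 to 38.3 against 8.13 to 9.44), and mixed for Aldoa and Ldha. Heights of different genes are not comparable.

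Of the aldolases, Aldoc fell and Aldoa did not pass. Aldoc had intensities of 38.3, 28.0 and 37.6 on the control arrays and 8.13, 9.44 and 8.40 on the knockdown arrays, at the brighter of its 2 probe sets. The groups did not overlap, and all 3 knockdown values were below the offset of 16, in the range where most probe sets of these arrays lay, so no exact fold is given. Means were 34.6 ± 5.75 and 8.66 ± 0.689 (SD, n = 3 each), and Aldoc fell on the offset scale (log2 difference -1.05, SE 0.149, limma adjusted p = 0.0187). The call depended on 4 of the arrays: without control array 1 or knockdown array 1, 2 or 3 the limma adjusted p was 0.0852, 0.0918, 0.0796 or 0.0839. It was also lost with an offset of 64 (limma adjusted p = 0.0568), with ordinary in place of moderated statistics (0.131) and within the 4 arrays with the stronger spikes (0.168). The other Aldoc probe set read 0.224 to 1.96 on all arrays and differed by 0.04.

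Aldoa, the muscle aldolase, was measured by 5 probe sets, none of which passed. The brightest read 2632, 3042 and 2182 in the control and 2792, 2720 and 2536 in the knockdown, so the knockdown arrays lay inside the control range. The difference was 0.01, with a 95% interval of -0.25 to 0.27 (limma adjusted p = 0.988). Differences at the other 4 probe sets ran from -0.25 to -0.01. All 5 carry the suffix that Affymetrix gives to probe sets with some probes matching other sequences, so their signal may not be of Aldoa alone.

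Pgk1, which makes the first ATP of the pathway, and Ldha, the end of its anaerobic branch, had bright signal and small differences. The brightest Pgk1 probe set gave 3380, 3800 and 2734 in the control and 2768, 3128 and 2766 in the knockdown. These overlapped, and the difference was -0.23 (95% interval -0.50 to 0.04, limma adjusted p = 0.503). Of its other 2 probe sets, which carry the same cross-matching suffix as those of Aldoa, 1 was lower on all knockdown arrays (2299 to 2540 against 2636 to 2843). Its difference of -0.22 missed the threshold (limma adjusted p = 0.307). Ldha read 3107, 3588 and 2802 in the control and 2694, 2873 and 2939 in the knockdown. The difference was -0.20, with a 95% interval of -0.46 to 0.07 (limma adjusted p = 0.572), so a fall of the size seen for Pfkp lay outside the interval for Ldha, Pgk1 and Aldoa at their brightest probe sets.

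Whether isoforms of 1 enzyme changed unequally was asked within each array, from the log2 ratio of their brightest probe sets, for 5 pairs. Since a ratio of unlike probe sets has no absolute meaning, only its difference between the groups is given. The ratio of Pfkp to Pfkm was lower in the knockdown by 1.56 on the log2 scale (SE 0.234, n = 3 arrays each). Pfkp against Pfkl differed by -1.003, Pfkm against Pfkl by 0.56, and Aldoc against Aldoa by -1.06. In these 4 pairs the groups did not overlap. Each had a two-sided exact permutation p of 0.1, the smallest that 3 arrays against 3 allow, and 0.125 after Benjamini-Hochberg adjustment over the 5 pairs, so the design cannot pass the threshold. Hk2 against Hk1 differed by 0.24 with overlapping groups (exact permutation p = 0.4, adjusted 0.4), and by -0.09 with the mean of each gene's probe sets. With that mean the ratio of Pfkp to Pfkm differed by -1.03, that of Pfkp to Pfkl by -0.58 and that of Aldoc to Aldoa by -0.42.

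**Figure D3:**
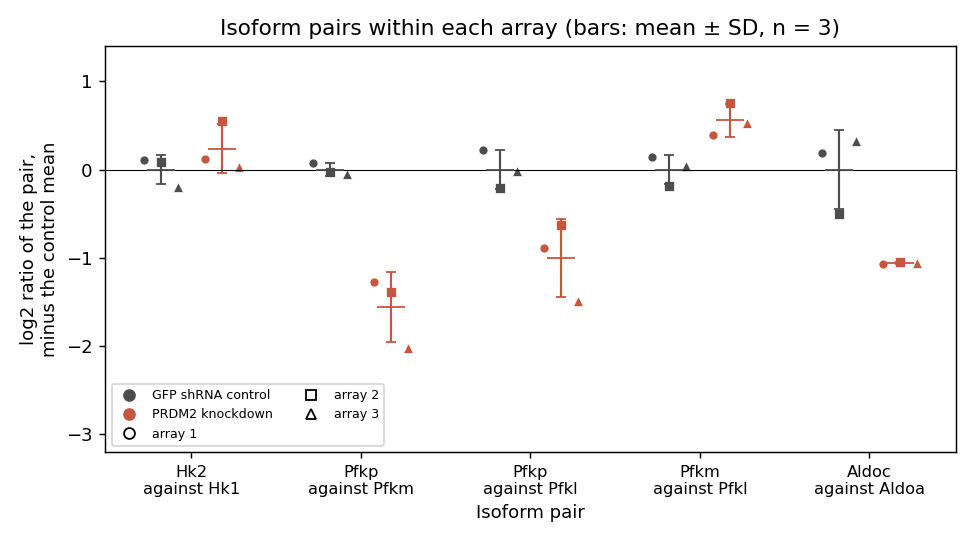
The log2 ratio of 2 isoforms in each array, minus the mean of the control arrays (y axis), is shown for 5 pairs, with bars at the group mean ± SD (n = 3). The knockdown arrays lie apart from the control arrays in every pair but Hk2 against Hk1, with the widest gap, -1.56, for Pfkp against Pfkm.

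Probe sets of 1 gene did not always move together, and 2 shared part of their array order with a sign of RNA quality. The second Hk1 probe set read 85.8, 415 and 12.6 on the control arrays and 49.5, 31.3 and 199 on the knockdown arrays. A Pfkp probe set read 20.4, 71.7 and 1.85 in the control and 6.0, 13.0 and 30.2 in the knockdown. In both, control array 2 was highest, knockdown array 3 next and control array 3 lowest. The beta-actin 5' to 3' ratio, which falls when RNA is degraded or copied incompletely, had the same first, second and last array, at 0.723, 0.549 and 0.114. In between the order differed: knockdown array 2, at a ratio of 0.399, read below control array 1, at 0.3015, in both probe sets. Differences between the groups at these 2 probe sets were -0.34 and -0.30 with 95% intervals of -2.80 to 2.13 and -1.67 to 1.07. The third Pfkp probe set read 13.2, 84.6 and 12.6 in the control and 4.59, 12.9 and 7.13 in the knockdown, and differed by -0.86 without passing (limma adjusted p = 0.568). When that ratio for Gapdh was entered into the fit as a covariate, the same 2 member probe sets passed as without it, those of Pfkp and Aldoc. But the Gapdh ratio was 0.0992 on control array 3 and 0.704 to 1.14 elsewhere, so it mainly set that array apart. With this covariate Pfkp and Aldoc stood at -1.34 and -0.96, and without control array 3 at -1.33 and -0.96. A fit with the beta-actin ratio was not run. The part of RNA quality, as read by the beta-actin ratio, was thus not tested for these 2 calls or for the other values.

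**Figure D4:**
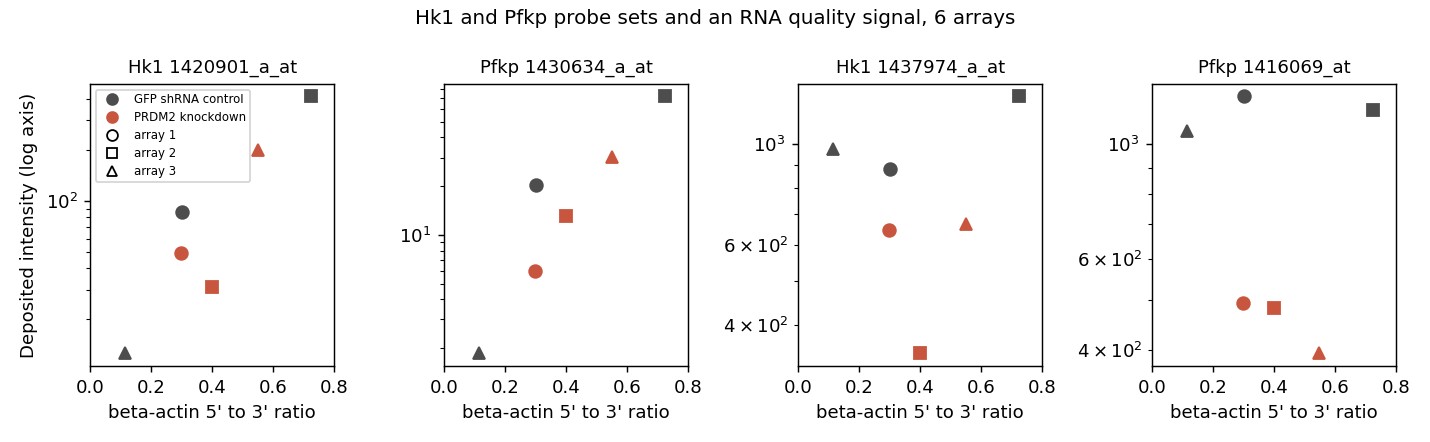
Deposited intensity (log axis) of 2 Hk1 and 2 Pfkp probe sets is plotted against the beta-actin 5' to 3' ratio of the array, with 1 symbol per array. In the left 2 panels control array 2 and knockdown array 3, with ratios of 0.723 and 0.549, have the highest signal and control array 3, at 0.114, the lowest. The right 2 panels show the brightest probe sets, where the groups are apart.

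The promoters of the members that fell are shown with that of Ldha, a member that did not pass, because HIF-1, the factor that induces glycolytic genes when oxygen is low, binds cores spelled ACGTG or GCGTG. Windows of 300 bases, from 250 before to 50 after an annotated start, were taken from RefSeq (GRCm38.p6) and searched on both strands. All 10 members had a window, with 18 start sites between them, and 14 of the 18 held a core, as did 43.8% of all 32851 windows. Windows of nearby starts overlap, as for Aldoa and Pfkm, so the same core can count in more than 1. ACGTG alone was in 19.6% of all windows and GCGTG in 32.4%. An ACGTG on each strand overlaps where the letters read CACGTG, an E-box, and counts at both positions. Capitals mark the cores below, which lie at chr13:6648722-6649021 on the minus strand for Pfkp, chr11:78322823-78323122 on the plus strand for the first Aldoc start, and chr7:46845554-46845853 on the plus strand for the first Ldha start.
Pfkp: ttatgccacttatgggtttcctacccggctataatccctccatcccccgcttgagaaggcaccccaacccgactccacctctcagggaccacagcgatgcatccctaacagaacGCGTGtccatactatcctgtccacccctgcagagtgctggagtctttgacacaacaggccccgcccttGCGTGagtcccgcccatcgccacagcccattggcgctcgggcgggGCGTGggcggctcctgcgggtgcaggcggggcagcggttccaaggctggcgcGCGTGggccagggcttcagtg
Aldoc: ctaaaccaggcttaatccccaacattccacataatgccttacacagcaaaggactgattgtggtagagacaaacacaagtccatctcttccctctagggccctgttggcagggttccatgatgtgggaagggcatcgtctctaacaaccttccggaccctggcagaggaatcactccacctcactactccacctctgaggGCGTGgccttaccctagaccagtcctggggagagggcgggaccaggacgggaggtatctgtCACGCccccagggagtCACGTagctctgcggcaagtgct
Ldha: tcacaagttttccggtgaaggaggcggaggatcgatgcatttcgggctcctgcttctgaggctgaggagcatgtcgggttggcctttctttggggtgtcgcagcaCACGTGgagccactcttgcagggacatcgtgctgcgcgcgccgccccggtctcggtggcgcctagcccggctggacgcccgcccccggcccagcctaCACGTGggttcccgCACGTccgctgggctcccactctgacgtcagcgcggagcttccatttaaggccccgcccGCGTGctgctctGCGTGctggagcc

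The Pfkp window held 4 cores, all GCGTG, the first Aldoc window held 3 and the second 1. Among members that did not pass, the second Hk1 window held 5 and the first Pfkm window 3. Ldha had the most of any member window, 7, of which 4 fell in its 2 CACGTG words. At 3 or more positions, cores were found in 8.93% of all windows. The only Hk2 window held 2, as did that of Pgk1, that of Pfkl held 1 and that of Gpi1 held 0. The 3 Aldoa windows held 0, 1 and 1. CAGCTG, an E-box bound by myogenic factors, was in 16.3% of all windows and in that of Gpi1 and 1 of 3 Aldoa windows among the members. Members that fell and members that did not pass both held ACGTG or GCGTG cores in these windows, and binding of HIF-1 was not tested.

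The other enzymes and regulators around glycolysis were taken as 6 lists of 76 genes, of which 69 were measured. By limma 8 of them had a probe set that passed as lower and 6 as higher, and 55 had none. Among all genes 2.08% had a probe set past the threshold as lower and 2.83% as higher. The count of lower genes was 4 without control array 1, 5 without control array 3, 3 without knockdown array 1 and 4 without knockdown array 2 or 3. Within the 4 arrays with the stronger spikes, 1 gene passed as lower and 2 as higher. The markers of differentiated muscle also differed between the groups, as given above, and their part in these results was not tested.

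In lower glycolysis, from triose phosphate to pyruvate, the muscle isoforms Pgam2 and Eno3 rose and Tpi1 fell, with 7 of 10 measured genes not passing and a median of -0.21 at the brightest probe sets. Pgam2, muscle phosphoglycerate mutase, read 7.42, 9.36 and 12.4 in the control and 94.2, 97.4 and 83.6 in the knockdown. It rose on the offset scale (log2 difference 2.03, SE 0.118, limma adjusted p = 0.000989). Its control values were all under 16, where most probe sets lay, so no exact fold is given. Eno3, muscle enolase, went from 285 ± 46.2 to 663 ± 83.9 (SD, n = 3 each), a rise of 1.10 (limma adjusted p = 0.0478). That call was lost without any single array but control array 3, with adjusted p of 0.0928 to 0.175. Tpi1, triose phosphate isomerase, fell by 0.51 at 1 of 3 probe sets (limma adjusted p = 0.0365), and without any single array it did not pass, with adjusted p of 0.0866 to 0.152.

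Genes for the fate of pyruvate and lactate went both ways, with 2 of 17 measured genes lower, 2 higher and 13 not passing. Pdk1, a kinase that keeps pyruvate out of mitochondria by inhibiting pyruvate dehydrogenase, read 476, 479 and 397 in the control and 210, 221 and 203 in the knockdown. It fell by 1.12 on the log2 scale (SE 0.0845, limma adjusted p = 0.00203), at 1 of its 4 probe sets. The brightest differed by -1.05 without passing (limma adjusted p = 0.0889). Pdp1, the phosphatase that reverses that inhibition, rose by 0.76 (limma adjusted p = 0.0468), with 0.0987 to 0.17 without any single array but knockdown array 1.

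Of the 3 listed carriers of the monocarboxylate family, which take lactate across the membrane, 1 fell, 1 rose and 1 did not pass. Slc16a1 (MCT1) had means of 772 ± 162 and 411 ± 34.5 (SD, n = 3 each) and fell by 0.93 (limma adjusted p = 0.0101). Without knockdown array 1 its adjusted p was 0.052. Slc16a3 (MCT4), known from glycolytic muscle, read 13.1, 11.4 and 17.4 in the control and 82.9, 66.7 and 64.6 in the knockdown, and rose by 1.499 (limma adjusted p = 0.00411). Its control values lay around the offset of 16. Slc16a7 (MCT2) read under 16 on all arrays and differed by -0.0018.

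**Figure D5:**
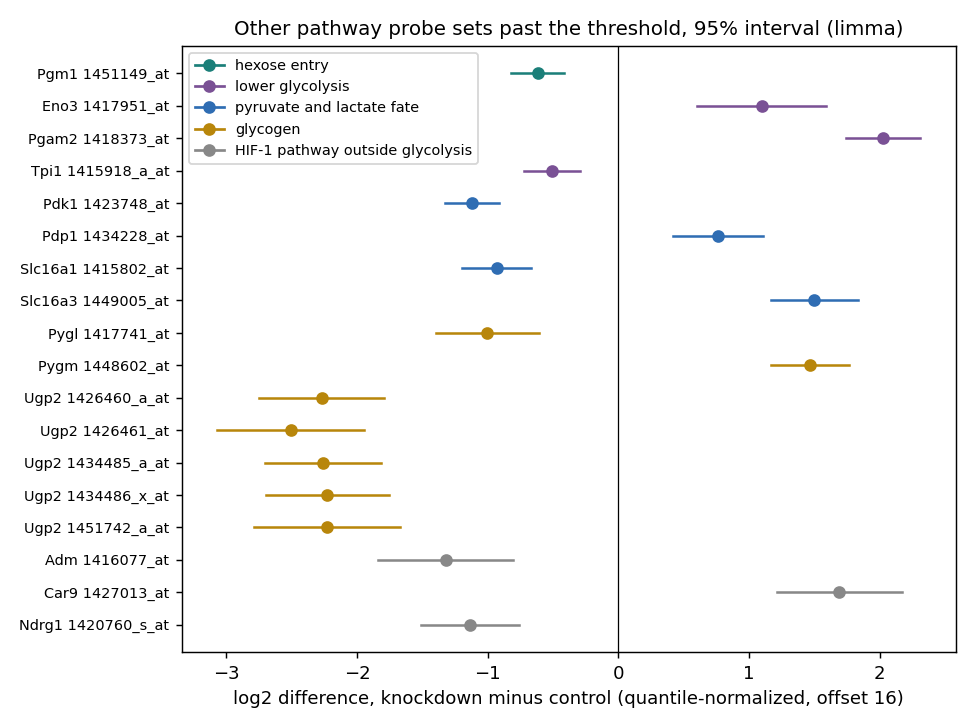
The log2 difference between knockdown and control (x axis) with its 95% interval from limma is shown for the 18 probe sets of other pathway genes that passed, coloured by list. The 5 Ugp2 probe sets lie between -2.51 and -2.23, and Pgam2, at 2.03, is the farthest on the other side.

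Glycogen genes held the largest fall among the lists. Ugp2 makes UDP-glucose, the sugar donor for glycogen, and its 5 probe sets all passed, with log2 differences from -2.51 to -2.23. The brightest read 1713, 1448 and 1119 in the control and 353, 348 and 220 in the knockdown (limma adjusted p = 0.00349). It carries the cross-matching suffix described for Aldoa, so its signal may not be of Ugp2 alone. All 5 still passed without any single array. With ordinary in place of moderated statistics none of them passed, with adjusted p of 0.0637 to 0.0942. Within the arrays with the stronger spikes, the probe sets at -2.5087 and -2.2283 in the main fit did not pass (limma adjusted p = 0.0823 and 0.0517). Pygm, muscle glycogen phosphorylase, rose by 1.47 (limma adjusted p = 0.003), from 19.2 ± 4.82 to 82.7 ± 6.14, whereas Pygl, the liver form, fell by 1.00 (limma adjusted p = 0.0295), from 24.9 ± 6.18 to 4.53 ± 1.24. The Pygl call was lost without any single array but control array 2, with 0.0906 to 0.131. Its knockdown values were all under 16. Of 11 measured genes 8 did not pass.

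In the list for glucose entry 1 of 10 measured genes passed: Pgm1, a phosphoglucomutase that links glucose 6-phosphate to glycogen, fell by 0.62 (limma adjusted p = 0.0166). Without any single array but control array 2 its adjusted p was 0.0528 to 0.0876. None of the 6 measured regulators of fructose 2,6-bisphosphate and its target passed. At the brightest probe set of each gene, the largest differences were those of Pfkfb4 and Pfkfb3, which make that activator of phosphofructokinase, at -0.80 (limma adjusted p = 0.0585) and -0.48 (limma adjusted p = 0.299). A dimmer probe set of Pfkfb2, of the same family, differed by 0.52 without passing (limma adjusted p = 0.214) and is named after its value was seen.

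Genes of the HIF-1 pathway outside glycolysis gave 2 lower, 1 higher and 12 not passing of 15 measured. Ndrg1, a stress-induced gene, fell by 1.14 at 1 of 5 probe sets (limma adjusted p = 0.0163), from 2889 ± 484 to 1346 ± 251 (SD, n = 3 each). Without control array 3 or knockdown array 1 or 3 its adjusted p was 0.0569, 0.087 and 0.0652. Adm, the peptide hormone adrenomedullin, fell by 1.32 at the dimmer of its 2 probe sets (limma adjusted p = 0.0288), with 0.0566 to 0.118 without any single array but control array 3. Car9, a carbonic anhydrase of the cell surface, rose by 1.69 (limma adjusted p = 0.00988), or with 0.0527 without knockdown array 1. The list thus had members past the threshold on both sides.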

How the data were processed

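RNA from 6 C2C12 samples, 3 per group, was labelled with biotin from 8 µg each, per the labels' protocols. The deposited table gives 1 intensity per probe set and array; the submitters' processing notes list GCOS and PLIER, and background correction and normalization are not given in the sources used here. Of 45101 probe sets, 64 controls were left out. Symbols came from the platform annotation: 34945 probe sets had 1, 932 several and 9160 none, and 34741 matched the GRCm38.p6 gene table, with 0 symbols changed. Signals of different probe sets were not compared with each other.

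Intensities were transformed as log2(intensity + 16), which understates changes of dim genes, and quantile normalized. Means ± SD are of deposited values, whereas differences and folds are of normalized ones. Groups were compared with limma 3.58.1 in R 4.3.3 (lmFit, eBayes, Benjamini-Hochberg adjustment over 34945 probe sets, threshold 0.05). The same test was checked on simulated data. The brightest probe set of a gene has the highest mean over 6 arrays. Isoform pairs were compared by exact permutation over arrays.

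The members, lists, cell markers and alternatives were chosen with earlier results of these data known. Named genes are the members, Prdm2, every listed gene with a passing probe set and, where none passed, the 2 largest differences of the list. Slc16a7, Pfkfb2 and the cell markers Myf5 and Col1a1 are named beyond this rule. Alternatives covered normalization, offset, a filter at a mean of 32, the variance model, the probe sets used, blocks, array weights, the Gapdh ratio and leaving out each array. The number of arrays limits the precision.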

Additional observations from a re-analysis of the deposited data

How the results depend on the processing

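Leaving out arrays, the count of member probe sets that fell ranged from 1 to 2, that of member probe sets that rose was 0 to 0, all probe sets past the threshold numbered 389 to 923, and other pathway genes 3 to 7 lower and 4 to 5 higher. Member probe sets lower past the threshold numbered 1 with an offset of 64 and with the filter on dim probe sets, which removes Aldoc. The same count came with ordinary statistics, the mean of a gene's probe sets, the replicate block and the 4 arrays with stronger spikes. The remaining one was Pfkp, except with the mean, where it was Aldoc. All probe sets past the threshold, 1083 in the main fit, numbered 170 with ordinary statistics and 590 with the replicate block. They numbered 2097 with array weights and 225 within the 4 arrays with stronger spikes. Other pathway genes lower, 8 in the main fit, numbered 4 with no normalization or an offset of 1. They numbered 5 with the filter or the replicate block, 2 with ordinary statistics, 15 with array weights and 1 within those 4 arrays. Other pathway genes higher, 6 in the main fit, numbered 1 with ordinary statistics and 2 within those 4 arrays. Apart from the filter, the cause was not tested. Whether the replicate numbers pair the arrays could not be settled with 3 arrays per group. Deviations of same-numbered arrays correlated at 0.368, 0.0645 and -0.0414, and array 3 of either group had the lower spike signal. With the replicate block the limma adjusted p of Aldoc was 0.0616.

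Of 391 values for member probe sets under alternatives 365 kept direction and side of the threshold, 9 lost the call and 17 changed sign, all at differences that had not passed. For the brightest Aldoa probe set these were -0.089 with the mean of its probe sets and -0.037 within the 4 arrays with stronger spikes. They were also -0.036 with the Gapdh 5' to 3' ratio as covariate, and -0.027 and -0.045 without control array 1 or 3 (range without an array -0.045 to 0.11). For another Aldoa probe set they were 0.080 with no normalization, 0.12 with median scaling and 0.0041 with array weights (without an array -0.092 to 0.090), and for one more 0.022 with median scaling (-0.092 to 0.018). The dimmest Aldoa probe set lay between -0.67 and 0.11 without an array. The second Hk1 probe set lay between -1.28 and 0.63 without an array and a Pfkp one between -0.86 and 0.27. A dim Pfkl one was at 0.036 with array weights, and the isoform pair Hk2 against Hk1 at -0.090 with the mean of a gene's probe sets. Of 398 values for other named genes, 98 lost the call and 0 changed sign.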
